A study of Mus musculus with 2 samples.

Results

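Nckap5-high myonuclei without slow myosin are nuclei of skeletal muscle fibres that held at least 5 unique molecular identifiers (UMIs, each marking 1 captured RNA molecule) of Nckap5 and 0 of Myh7, the slow, type I myosin heavy chain. They were chosen by these measured counts among barcodes with at least 500 UMIs, at most 10% mitochondrial UMIs and fewer than 3 UMIs summed over 8 genes of stromal, endothelial and immune cells. Of 7318 nuclei that passed these filters, 206 met the rule. All 206 came from the cKO library, which held 3816 of the nuclei, and 0 came from the 3502 of the Ctrl library.

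Single-nucleus RNA-Seq was run on the gastrocnemius and plantaris (GP), fast muscles of the mouse calf. Ctrl mice were Net39 fl/fl without Cre, and cKO mice were HSACreERT2;Net39 fl/fl, so both groups carried the floxed allele and both received tamoxifen. The HSA promoter drives the inducible Cre in muscle fibres and not in satellite cells. The mice were labelled as strain B6C3F1, which the methods give for the zygotes only, with later crosses to C57BL/6N and HSACreERT2 mice, and were 5 months old, 3 months after tamoxifen. For each group, nuclei of 3 muscles were pooled into 1 library, although the titles name only mouse 1. Animals cannot be told apart within a library, and with 1 sample per group there was no test between groups and no p-value is given.

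Net39, encoded by Plpp7, is a protein of the inner nuclear membrane that is abundant in muscle. Nckap5 encodes Nck-associated protein 5, of which little is known in muscle. A muscle fibre holds many nuclei in 1 cytoplasm, and adult limb fibres are typed by their myosin heavy chain: Myh7 in slow fibres, Myh2 in type IIa, Myh1 in type IIx and Myh4 in type IIb.

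Values are CPM, the UMIs of a gene scaled to a total of 1000000 UMIs, over the summed nuclei of a set, with exact 95% Poisson intervals, exact 95% binomial intervals for shares and exact conditional intervals for ratios. They cover counting error only. The members were compared with cKO nuclei that also held 0 Myh7 UMIs but at most 1 Nckap5 UMI (Nckap5-low nuclei, 2637), with 1 Nckap5-low nucleus per member of nearly the same depth (206, depth-matched), with cKO nuclei at 5 or more Nckap5 UMIs that did hold Myh7 (207) and with Nckap5-low nuclei of the Ctrl library (3393). The Ctrl library held 10410316 UMIs over 3863 barcodes and the cKO library 8446070 over 3994. The median was 2942.5 UMIs in the members, 1510 in Nckap5-low nuclei, 2941 in the depth-matched set, 2837 in Nckap5-high nuclei with Myh7 and 2118 in the Ctrl set. The libraries shared 5 barcode sequences, 1 of them a member's.

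Nckap5 was seen in 33.4% of cKO nuclei (31.9 to 34.9) and in 5.57% of Ctrl nuclei (4.83 to 6.38), and its level was 693 CPM (675 to 712) in cKO against 28.1 (24.8 to 31.7) in Ctrl. The gene lies on chromosome 1 from 125913620 to 126830799 on the minus strand of GRCm38. The highest count in a single Ctrl nucleus was 4, reached by 4 nuclei, and 9 more Ctrl nuclei held 3. In cKO, 413 nuclei held 5 or more, 10.8% of the library (9.85 to 11.9), and 207 of them also held Myh7. The members were thus 5.40% (4.70 to 6.16) of cKO nuclei, against 0 of 3502 in Ctrl, which allows a share of up to 0.0857%. Ctrl nuclei were deeper on the median, and after each nucleus was thinned to 1000 UMIs a cut of 3 Nckap5 UMIs with 0 Myh7 took 155 of 3260 cKO nuclei (4.75%) and 1 of 3311 Ctrl nuclei (0.0302%). Nuclei under 1000 UMIs, 556 in cKO and 191 in Ctrl, were left out of the thinned count. Before the stromal and mitochondrial filters, 4 Ctrl barcodes reached 5 Nckap5 UMIs, and all 4 had 3 or more stromal UMIs. In cKO, 8 barcodes removed for stromal UMIs and 13 removed for over 10% mitochondrial UMIs also reached 5.

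**Figure D1:**
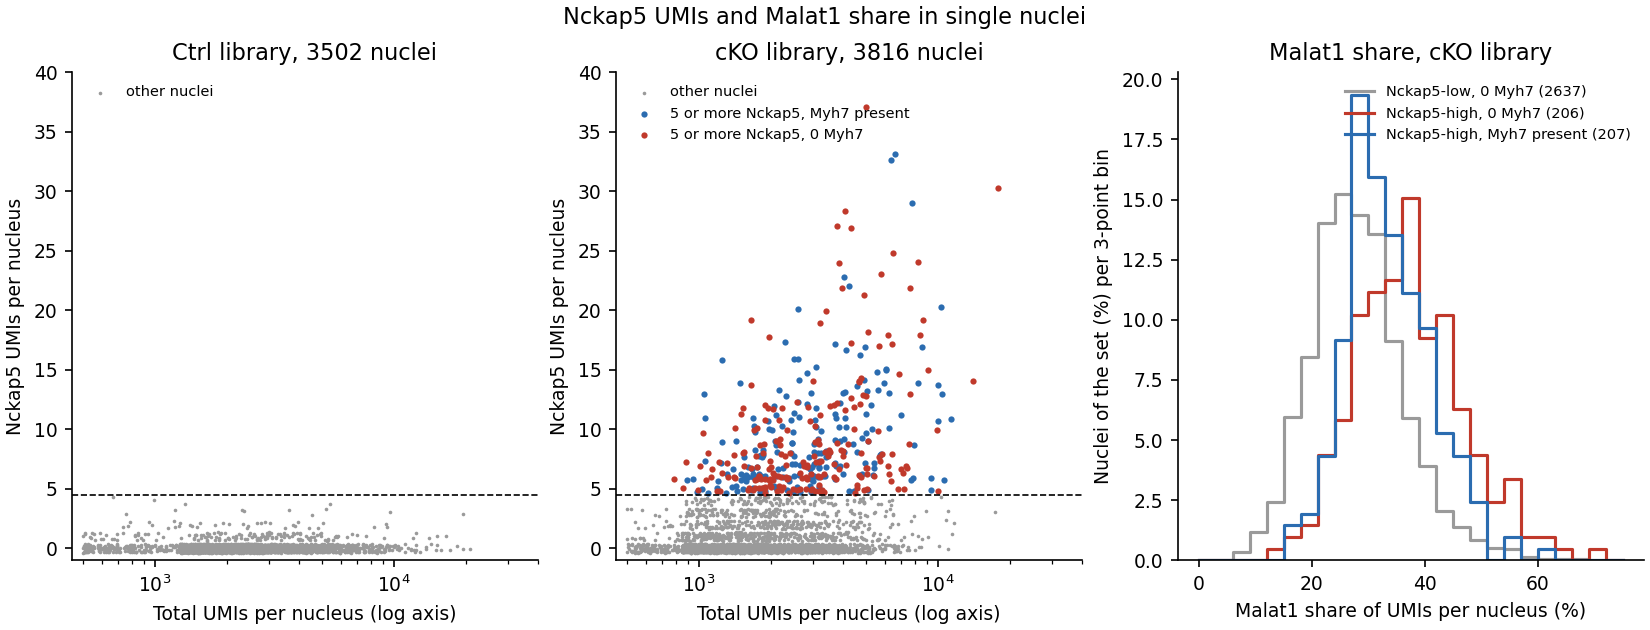
Nckap5 UMIs against total UMIs (log axis) in each nucleus of the Ctrl and cKO libraries (left and middle; counts are spread by a small random offset, and the dashed line marks the cut between 4 and 5), and the Malat1 share of each nucleus in 3 cKO sets (right). No Ctrl nucleus lies above 4 Nckap5 UMIs, and the Malat1 shares of the members are centred on 36.9% against 27.5% in Nckap5-low nuclei.

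Within the members, Nckap5 counts ran from 5 to 37 with a median of 7, or from 0.0499% to 1.15% of a nucleus's UMIs. There was no gap at the cut: 116 cKO nuclei held 4 Nckap5 UMIs with or without Myh7, and of nuclei with 0 Myh7, 57 held 4 and 40 held 5. Those just outside, at 4, had 1106 CPM of Ablim1, 699 of Atp2a2 and 523 of Mylk4, and those just inside, at 5, had 1442, 919 and 185. At the other border, 27 Nckap5-high nuclei held exactly 1 Myh7 UMI and 28 held exactly 2. The members are thus a range of a count, and whether they form a cluster was not tested.

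Marker genes were those of muscle fibre nuclei. All 9 myonuclear markers (Ttn, Neb, Ckm, Dmd, Ryr1, Trdn, Acta1, Mybpc1 and Pfkm) were present, at a summed 61111 CPM in the members and 75205 in Nckap5-low nuclei. Adipocyte markers had 0 UMIs over the 206 nuclei, smooth muscle 1, satellite cell 3, immune 4, endothelial 5, Schwann 5, tenocyte 8 and fibro-adipogenic 26, a list that was at 36.1 CPM in the members against 85.1 in Nckap5-low nuclei. Pax7, the defining gene of satellite cells, had 2 UMIs. Low stromal, endothelial and immune counts follow in part from the rule, which caps 8 genes of those cells, Pdgfra of the fibro-adipogenic list among them. The neuromuscular junction list had 255 CPM against 225, with its markers Ache and Ufsp1 at 0 and Chrne at 4 UMIs, and the myotendinous list had 74.98 CPM against 101. Spindle fibre markers had 42 UMIs, or 58.3 CPM against 3.68 in Nckap5-low nuclei, and 34 of them were of Myh3 in 5 nuclei. High doublet scores were more frequent than in Nckap5-low nuclei: 11.7% of them lay in the top 8% of their library's scores, against 5.20% of Nckap5-low and 5.83% of depth-matched nuclei. The share was 15.5% in Nckap5-high nuclei with Myh7 and 14.9% in nuclei with 2 to 4 Nckap5 UMIs. The part of these in the results below was not tested beyond leaving the high scores out.

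The absence of Myh7 did not mean the absence of the slow gene set. Of the members, 124 of 206 held at least 1 UMI of the other 6 slow genes Myh7b, Tnnt1, Tnnc1, Tnni1, Myl2 and Myl3 (60.2%, 53.2 to 66.9), against 10.7% (6.81 to 15.7) of depth-matched nuclei and 2.30% (1.82 to 2.86) of Ctrl Nckap5-low nuclei. With every nucleus thinned to 500 UMIs the share was 18.9% (13.8 to 24.96) in the members and 3.91% (3.20 to 4.72) in Nckap5-low nuclei. It was 12.0% (6.12 to 20.4) in the 92 cKO barcodes that had been removed for stromal UMIs (median 1851.5 UMIs), whose cell types should lack these genes. These barcodes are no clean background, since 20.7% (12.9 to 30.4) of them showed Nckap5 at that depth and some may be mixed droplets. Their interval overlaps the members', and free RNA in the droplets was not separated from expression by this measure. The name "without slow myosin" is accordingly kept for the Myh7 rule alone.

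Of 11 genes in the slow fibre list, 8 passed the filter on low counts (at least 50 UMIs in both sets together and at least 10 seen or expected in the members). All 8 were at least 2-fold higher in the members than in Nckap5-low nuclei, with a median log2 ratio of 2.60. Over all 6025 genes that passed the filter, 260 (4.32%) were past 2-fold higher and 638 (10.6%) past 2-fold lower, and the median log2 ratio was -0.23. Genes that passed only through their UMIs in the members could hardly be other than higher, and without them 166 of 5672 genes were past 2-fold higher and 638 lower, with Tnnc1 the only such gene of the slow list. Atp2a2, the slow calcium pump of the sarcoplasmic reticulum, was at 896 CPM against 96.1 and was seen in 137 of 206 members. Tnnt1 and Tnnc1, the slow troponins T and C, were at 226 against 27.4 CPM and 90.2 against 8.59. Tpm3, the slow tropomyosin, was at 362 CPM against 43.8, and the M-band gene Myom3 at 532 against 160. Against the depth-matched nuclei all 8 were again past 2-fold higher, where 4.66% of 3222 genes were, with a median of 2.99. Tnnc1, with 4 UMIs in the depth-matched nuclei, passed there only through its UMIs in the members. These counts, the share and the median were not recomputed without such genes.

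Most of the slow genes stood between the other sets. In Nckap5-high nuclei with Myh7, Atp2a2 was at 2573 CPM, Tpm3 at 1279, Tnnt1 at 601 and Myl2, the slow regulatory light chain, at 561, against 150 in the members. Of 10 slow genes that passed the filter in this comparison, 7 were past 2-fold lower in the members and 0 higher, with a median log2 ratio of -1.58, while over all 3155 genes 1.77% were past 2-fold lower and 1.87% higher. Myom3 went the other way, at 532 CPM in the members against 410.0, and Casq2, the calcium store protein of slow and heart muscle, was at 70.8 against 91.7 with an interval of the log2 ratio that included 0. Part of this order follows from the rule, which split the nuclei on Myh7.

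Fast-fibre genes were lower in the members. Of 12 fast fibre genes, 8 were past 2-fold lower and 0 higher than in Nckap5-low nuclei, with a median log2 ratio of -1.16, where 10.6% of all genes were lower and 4.32% higher. Pvalb, the calcium buffer parvalbumin, was at 68.0 CPM against 321, Actn3, the Z-disc actinin of fast fibres, at 119 against 554, and Tpm1, the fast tropomyosin, at 478 against 1777. The fast calcium pump Atp2a1 was at 499.8 CPM against 1522. Myl1, the fast essential light chain, did not share this difference, at 1616 CPM against 1659. Against Nckap5-high nuclei with Myh7, where 1.77% of all genes were past 2-fold lower and 1.87% higher, 0 of the 12 were, with a median of 0.045.

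The 3 fast myosins differed from each other. Myh4 was at 647 CPM (590 to 709) in the members against 2604 in Nckap5-low and 2635 in depth-matched nuclei, a log2 ratio of -2.01 (-2.15 to -1.88). Myh2 was at 772 CPM (709 to 839) against 428 and 367, a log2 ratio of 0.85 (0.71 to 0.99). Myh1 was at 755 CPM against 827 and 966, a log2 ratio of -0.13 that turned to 0.060 with totals that excluded Malat1 and mitochondrial genes. At 500 UMIs per nucleus, a Myh2 UMI was seen in 23.8% (18.1 to 30.2) of members, 11.6% (10.4 to 12.9) of Nckap5-low nuclei and 8.70% (3.83 to 16.4) of the barcodes removed for stromal UMIs. A Myh4 UMI was seen in 12.1% (8.01 to 17.4) of members and 58.8% of Nckap5-low nuclei, and its share in the stromal barcodes was 18.5% (11.1 to 27.9). The members' share of Myh4 was thus not above that of the stromal barcodes, and a low level in the members cannot be told from free RNA.

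A main myosin was given to a nucleus with at least 3 UMIs of Myh1, Myh2 and Myh4 together when 1 of them held at least 60% of these. It was Myh2 in 41 members (19.9%), Myh1 in 30 (14.6%) and Myh4 in 27 (13.1%), 29 were mixed and 79 (38.3%) had under 3 such UMIs. In Nckap5-low nuclei it was Myh4 in 53.9%, Myh1 in 12.6% and Myh2 in 8.30%, and 20.1% had under 3. Median depths differed, from 2035 UMIs in the members with under 3 to 4585 in the mixed ones. After thinning to 500 UMIs 191 of 206 members had under 3 such UMIs, so the classes rest on depth.

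Plpp7, the gene targeted in cKO, was at 48.7 CPM (44.3 to 53.5) over all Ctrl nuclei and at 41.0 (36.7 to 45.7) over all cKO nuclei. The floxed segment is its first exon and the assay counts 3′ ends, so these UMIs do not show whether that exon was lost in a nucleus. The members held 7 Plpp7 UMIs in 6 nuclei, or 9.72 CPM (3.91 to 20.03), against 53.6 in Nckap5-low, 38.4 in depth-matched, 15.8 in Nckap5-high nuclei with Myh7 and 48.9 in Ctrl nuclei. The log2 ratio to Nckap5-low nuclei was -2.46 (-3.79 to -1.40) and that to the depth-matched set -1.98. Of the 22 nuclear envelope genes, 15 passed the filter, 0 were past 2-fold higher and 3 lower, where 10.6% of all genes were lower: Plpp7, Sun2 (19.4 CPM against 51.3) and Tmpo (15.3 against 36.6), with a median of -0.22 beside -0.23 over all genes. The 3 lower genes had too few UMIs for the filter against depth-matched nuclei, where their log2 ratios were -1.98, -1.23 and -1.38. Of the 8 genes that passed there 0 were past 2-fold, where 4.66% of all genes were higher and 7.01% lower. Lmna, which encodes lamins A and C, was at 69.4 CPM against 58.3.

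Mylk4, a myosin light chain kinase gene of striated muscle, was at 304 CPM (265 to 347) in the members, 1308 in Nckap5-low nuclei, 380 in Nckap5-high nuclei with Myh7 and 2501 in Ctrl Nckap5-low nuclei. The log2 ratio to Nckap5-low nuclei was -2.11 (-2.31 to -1.91). At 500 UMIs per nucleus a Mylk4 UMI was seen in 10.7% (6.81 to 15.7) of members, 36.0% of Nckap5-low nuclei and 8.70% (3.83 to 16.4) of stromal barcodes, so that the members' interval overlapped that of the stromal barcodes. Mylk2, the kinase of fast-fibre regulatory light chains, was at 90.2 CPM in the members and 402 in Nckap5-low nuclei. The difference in Mylk4 was present within each main myosin, with log2 ratios of -1.62 among Myh1 nuclei, -1.41 among Myh2, -1.58 among Myh4, -0.52 among mixed nuclei and -4.00 among those with under 3 fast myosin UMIs.

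**Figure D2:**
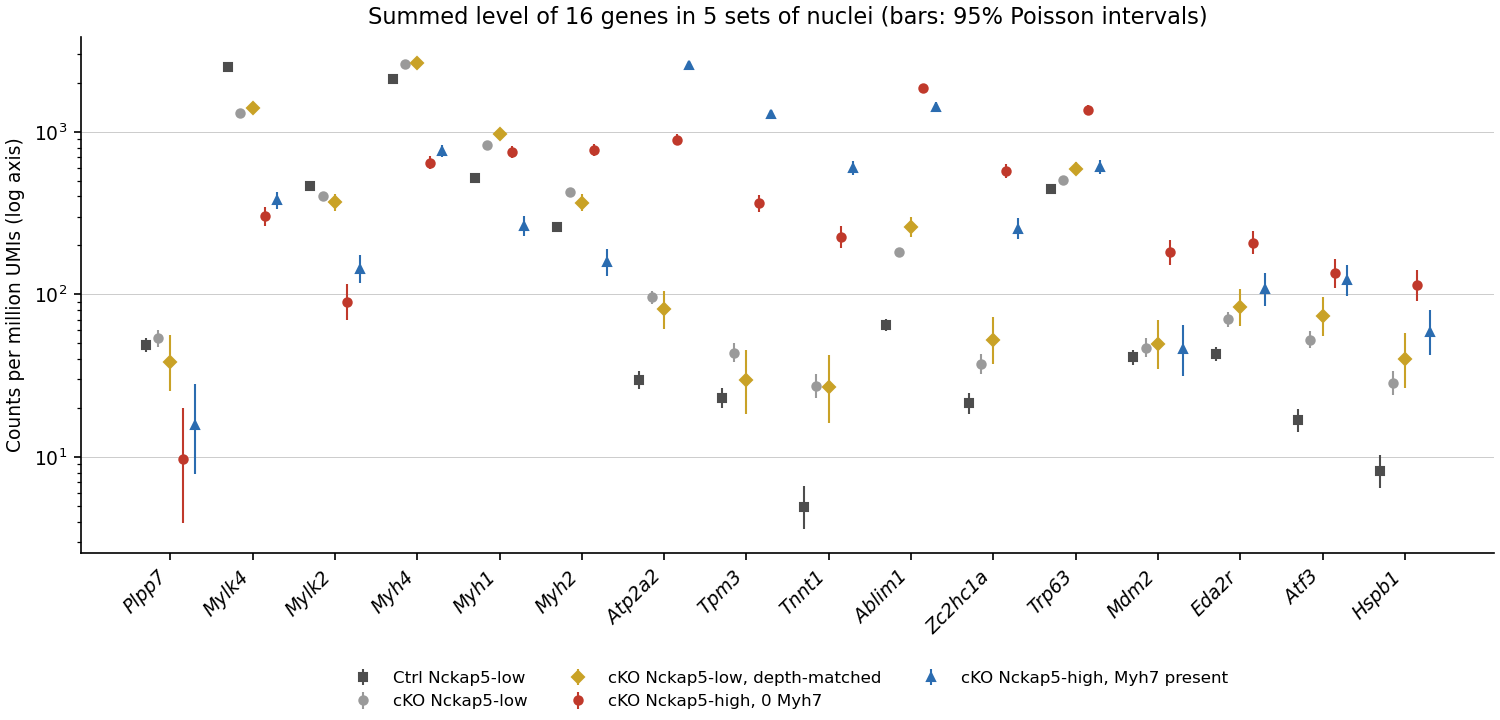
Summed level (CPM, log axis) of 16 genes in 5 sets of nuclei, with 95% Poisson intervals. The members, in red, lie below both Nckap5-low cKO sets for Mylk4 and Myh4, above them for Ablim1 and Zc2hc1a, and between the Nckap5-low nuclei and the Nckap5-high nuclei with Myh7 for Atp2a2, Tpm3 and Tnnt1.

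Malat1, a long RNA retained in the nucleus, made up 37.6% of all UMIs in the members, 28.8% in Nckap5-low, 30.1% in depth-matched and 33.4% in Nckap5-high nuclei with Myh7, and 26.3% in Ctrl Nckap5-low nuclei. By nucleus, the share in the members ran from 14.7% to 71.2% with a median of 36.9%, and 135 of 206 lay above the upper quartile of the Nckap5-low nuclei, 32.8%. The mitochondrial share was 0.403% in the members and 0.461% in Nckap5-low nuclei. A larger Malat1 share lowers every other CPM, and totals without Malat1 and mitochondrial genes raised each log2 ratio to Nckap5-low nuclei by 0.19. Neat1, another nuclear long RNA, was at 3885 CPM against 4057 with a log2 ratio of -0.063, which turned to 0.13 under that scaling and to 0.062 against depth-matched nuclei.

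With Nckap5 and Myh7, which the rule used, left out, the highest ratio to Nckap5-low nuclei was that of the long noncoding RNA Gm42784. It was at 104 CPM against 2.66, in 44 members. In Nckap5-high nuclei with Myh7 it was at 96.0 CPM, and the log2 ratio of the members to these was 0.12 (-0.38 to 0.61). Zc2hc1a, a zinc finger gene, was at 578 CPM (523 to 636) against 37.4, a log2 ratio of 3.95 (3.69 to 4.21), and was seen in 106 members. It was at 254 CPM in Nckap5-high nuclei with Myh7 and 21.4 in Ctrl. Ablim1, which encodes an actin-binding LIM protein, was at 1856 CPM against 182, in 173 members, with 1429 in Nckap5-high nuclei with Myh7. Of the 15 genes of highest ratio, 11 passed the filter only through their UMIs in the members, all but Zc2hc1a, Ablim1, Atp2a2 and Gm12092. The 15 also held the long noncoding RNAs Gm12681 and Gm12092, Cemip of hyaluronan turnover, the Wnt receptor gene Ror2, Hsf2bp, the glutathione hydrolase gene Ggt5, the cAMP-responsive exchange factor gene Rapgef4, the matricellular gene Cyr61, the predicted gene 4933415F23Rik, Arid5a, Tnnc1 and Atp2a2. Against depth-matched nuclei the log2 ratios of these 15 genes ran from 2.44 (Hsf2bp) to 4.61 (Gm42784). Cemip, Hsf2bp, Ggt5, Rapgef4, 4933415F23Rik and Arid5a had too few UMIs for the filter in that comparison. Of the 15, Cemip, Ror2, Tnnc1, Atp2a2 and 4933415F23Rik were higher in Nckap5-high nuclei with Myh7 than in the members, and the rest were lower there.

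The 15 genes of lowest ratio among those seen in the members each had 1 to 5 UMIs in all 206 members. Fam19a4 had 1 UMI against 193 in Nckap5-low nuclei, a log2 ratio of -4.83 (-10.14 to -2.33), and Pdzd7 and Nav3 also had 1. Erbb4, a neuregulin receptor gene, had 5 UMIs against 340 (-3.32, -4.96 to -2.09). The list also held Mertk, Arrdc4, the ceramide synthase gene Cers1, Mrc1, 2810459M11Rik, Kcnh7, Sh2d6, Col22a1 of the myotendinous junction, the glycolytic shuttle gene Gpd1, Tmem178b and Phldb2. A further 6 genes that passed the filter had 0 UMIs in the members: Gsn, Rps6ka1, 0610040F04Rik, Slc2a3, Myo15 and Stxbp6. The difference was not as large for every gene in depth-matched nuclei. Kcnh7 had 5.69 CPM in the depth-matched nuclei against 40.1 in all Nckap5-low nuclei, and the log2 ratio to the former was -0.45. That of Mrc1, of the immune list, was -1.03 and that of 2810459M11Rik -1.62, from 2 and 3 UMIs in the depth-matched nuclei. The intervals of all these ratios included 0.

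Of 23 genes of the p53 family and its targets, 12 passed the filter. Of these, 6 were past 2-fold higher, 0 lower and 6 within 2-fold, where 4.32% of all genes were past 2-fold higher. Their median log2 ratio was 1.04. Against depth-matched nuclei 5 of 7 were past 2-fold higher, where 4.66% of all genes were. Trp63, a p53 family member, was at 1365 CPM (1281 to 1453) against 508, Mdm2, the ubiquitin ligase that targets p53, at 182 against 47.0, and Eda2r, a receptor of the tumour necrosis factor family, at 208 against 70.1. Pvt1, Btg2 and Phlda3 were the other 3. At 500 UMIs a Trp63 UMI was seen in 37.4% (30.8 to 44.4) of members, 18.4% of Nckap5-low nuclei and 7.61% of stromal barcodes. Trp53 itself was at 22.2 CPM against 21.9, and Cdkn1a, the cell cycle inhibitor p21, was below the filter with 15.3 against 2.66 CPM, from 11 and 13 UMIs. Of 12 DNA repair genes that passed, 0 were past 2-fold in either direction, with a median of -0.26.

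Mdm2 differed between the members and Nckap5-high nuclei with Myh7, at 182 against 45.9 CPM, a log2 ratio of 1.99 (1.42 to 2.59). Its 131 UMIs lay in 48 members, and 10 nuclei held 52.7% of them. Trp63 was at 1365 against 609 and Eda2r at 208 against 108. Over the p53 list 2 of 8 genes were past 2-fold higher there and 0 lower, with a median of 0.57, where 1.87% of all genes were higher and 1.77% lower and their median was -0.11.

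Stress and early response genes were mixed. Of 29, 12 passed the filter, 3 were past 2-fold higher and 2 lower, with a median of 0.60, where 4.32% of all genes were higher and 10.6% lower. Atf3, a stress-induced transcription factor, was at 135 CPM (109 to 164) in the members, 52.7 in Nckap5-low, 74.0 in depth-matched, 122 in Nckap5-high nuclei with Myh7 and 16.8 in Ctrl nuclei. Its 97 UMIs lay in 36 members, and 10 nuclei held 58.8% of them. Hspb1, a small heat shock protein gene, was at 114 against 28.6 CPM and Dnajb1, a co-chaperone gene that passed only through its 16 UMIs in the members, at 22.2 against 7.77. Nr4a1 and Nr4a3, immediate early nuclear receptors, were lower, at 37.5 against 79.3 and 15.3 against 67.9. Against depth-matched nuclei 1 of 8 genes was past 2-fold higher (Hspb1) and 1 lower (Nr4a1), where 4.66% and 7.01% of all genes were. The log2 ratio of Atf3 was 0.86 in that comparison.

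Among stretch-response genes, 3 of 8 were past 2-fold higher and 0 lower, with a median of 0.50, where 4.32% of all genes were past 2-fold higher. Cryab, the chaperone alpha-B crystallin, was at 379 CPM against 122, in 104 members, and Csrp3, a Z-disc LIM protein gene, at 111 against 46.4. Against depth-matched nuclei 2 of 7 were past 2-fold higher, where 4.66% of all genes were, and Csrp3 had a log2 ratio of 0.83. Ankrd1 was at 95.8 against 17.2, but 34 of its 69 UMIs came from 1 nucleus.

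**Figure D3:**
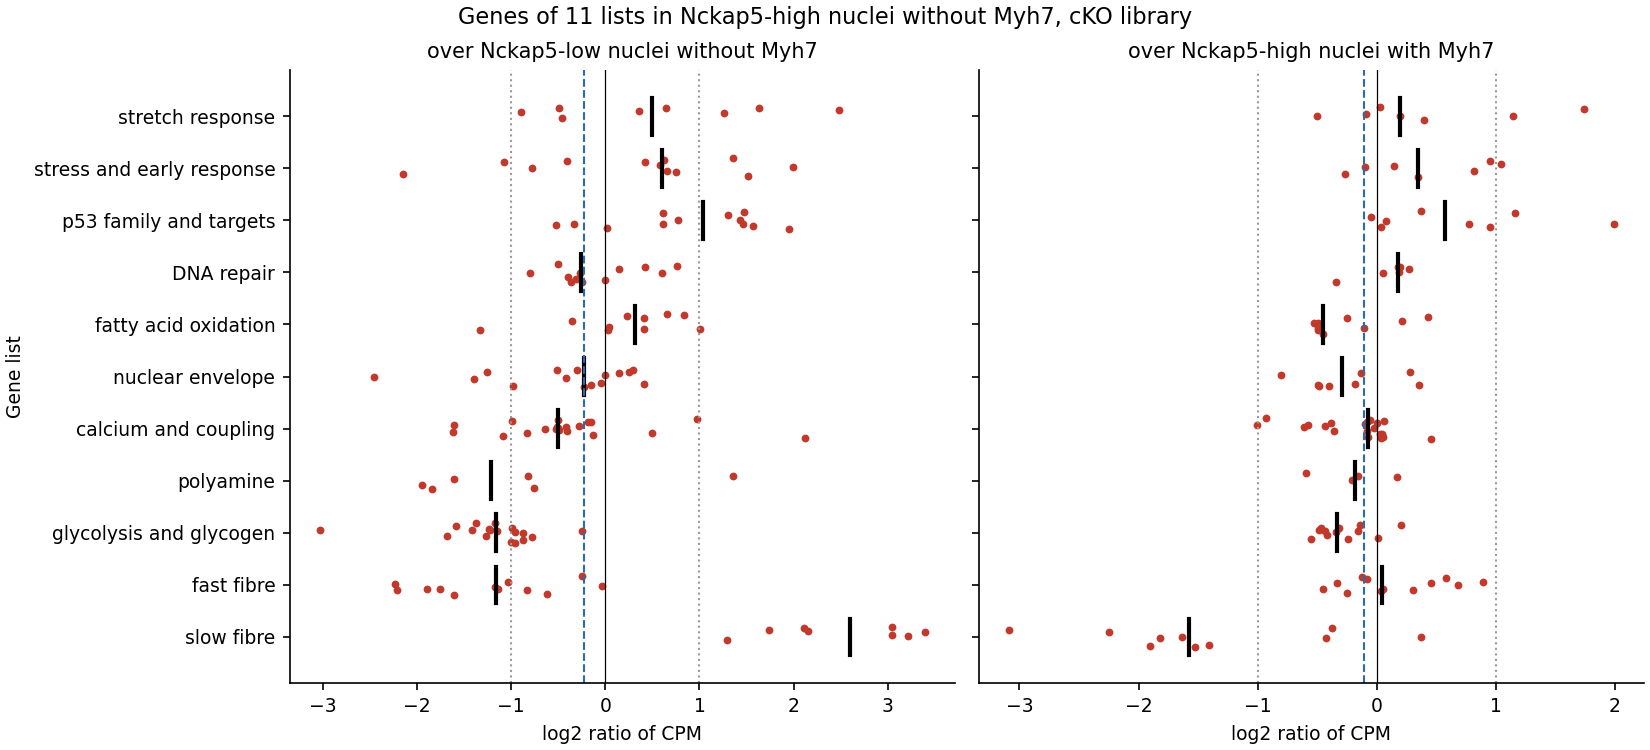
log2 ratio of CPM of each gene of 11 lists that passed the filter, members over Nckap5-low nuclei (left) and over Nckap5-high nuclei with Myh7 (right); each point is a gene, black bars are list medians, the blue dashed line is the median of all genes and dotted lines mark 2-fold. The slow fibre list lies to the right of 1 on the left (median 2.60) and mostly to the left of -1 on the right (median -1.58).

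Genes of sugar metabolism were lower in the members. Of 18 genes of glycolysis and glycogen, 11 were past 2-fold lower and 0 higher, with a median log2 ratio of -1.16, and against depth-matched nuclei 8 of 13 were, where 7.01% of all genes were past 2-fold lower. Phkg1, the catalytic subunit of phosphorylase kinase, was at 791 CPM against 2545, and Pygm, muscle glycogen phosphorylase, at 423 against 1130. Of 10 genes of fatty acid oxidation 1 was past 2-fold higher (Hadhb, 149 against 74.2 CPM, with a log2 ratio of 0.98 and so no longer past 2-fold against depth-matched nuclei) and 1 lower (Ucp3, 29.2 against 73.6), shares near those of all genes. In the polyamine list 3 of 6 were past 2-fold lower, where 10.6% of all genes were. Amd1 (87.5 against 313 CPM) and Smox (23.6 against 91.2) were among them. Sat1, which acetylates polyamines for export, was higher (40.3 against 15.7), though 1 nucleus held 16 of its 29 UMIs. Against Nckap5-high nuclei with Myh7, 0 of 12 genes of glycolysis and glycogen and 0 of 4 polyamine genes were past 2-fold. Over all genes 1.87% were higher and 1.77% lower in that comparison. The summed glycolysis and glycogen list was at 3615 CPM in the members, 4301 in Nckap5-high nuclei with Myh7 and 8764 in Nckap5-low nuclei.

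Among regulators of fibre type, Esrrg, a nuclear receptor of the oxidative programme, was at 2492 CPM against 1144 and was seen in 199 members. Sox6, a repressor of slow genes, was at 1295 against 3115, and Maf and Eya1 of the fast programme were also past 2-fold lower. These 3 were the lower genes among 15 that passed, against 1 higher, where 10.6% and 4.32% of all genes were. Mef2c was at 1537 CPM against 1765, and 0 of 7 Mef2 and class IIa histone deacetylase genes were past 2-fold in either direction. Of the Nckap family and a list of WAVE complex and microtubule genes, 1 of 11 was past 2-fold, Cyfip2, at 66.6 against 11.2 CPM, which passed only through its UMIs in the members. Nckap1 was at 104 against 114.

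Markers of denervated fibres differed by gene, with 3 of 9 past 2-fold higher and 3 lower (Chrne, Lrp4 and Dok7), where 4.32% and 10.6% of all genes were. Colq, the collagen tail that anchors acetylcholinesterase, was at 76.4 CPM against 14.5, Ncam1, an adhesion molecule, at 343 against 114, and Runx1 at 97.2 against 34.96. Against depth-matched nuclei Ncam1 and Runx1 were under 2-fold, with log2 ratios of 0.50 and 0.67. All 3 were past 2-fold higher than in Nckap5-high nuclei with Myh7. Colq had 12.9 CPM there, from 9 UMIs, the highest ratio among genes past the filter (log2 2.57, 1.54 to 3.77). It passed the filter in that comparison only through its UMIs in the members.

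Levels differed along the Nckap5 count in cKO nuclei with 0 Myh7. From 0 through 1, 2 and 3 to 4 to 5 to 6 Nckap5 UMIs, Atp2a2 was at 69.4, 294, 471, 758 and 962 CPM, and it then stayed between 781 and 909. Ablim1 went on from 1363 CPM at 5 to 6 UMIs to 2425 at 15 or more, and Zc2hc1a from 337 to 1015. Mdm2 was at 82.0, 151, 314 and 259 CPM in the 4 member bins. Myh4 was at 2751 CPM in nuclei with 0 Nckap5 UMIs and between 409 and 764 in the 4 member bins. The member bins held 81, 63, 37 and 25 nuclei, and their median depth was 2318, 3036, 3071 and 5103 UMIs. The part of depth in these differences was not tested.

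**Figure D4:**
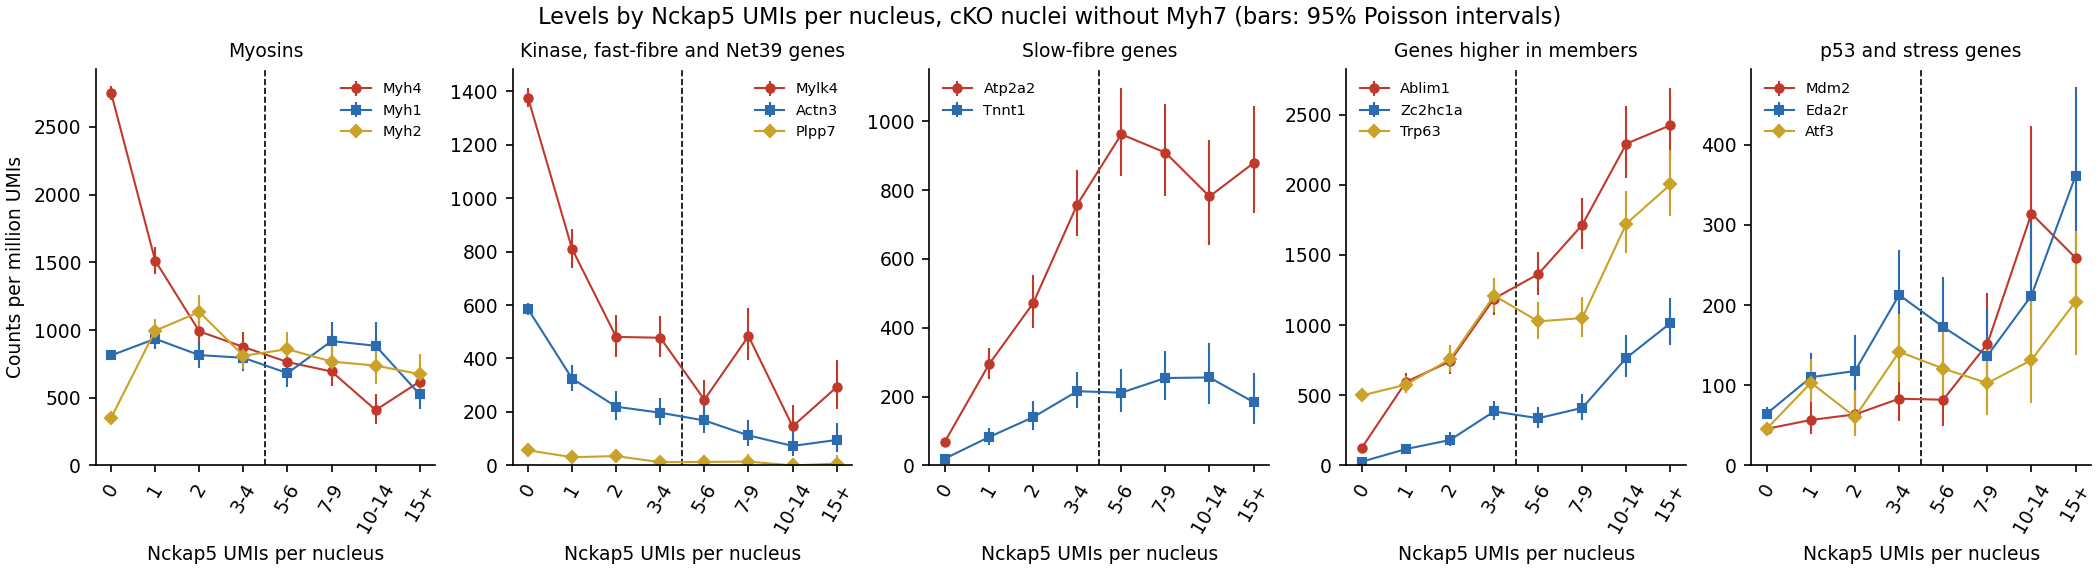
Level (CPM) of 14 genes in cKO nuclei with 0 Myh7 UMIs, grouped by their Nckap5 UMIs, with 95% Poisson intervals; bins right of the dashed line are the members. Atp2a2 lies between 781 and 962 CPM from 5 to 6 UMIs on, while Ablim1, Zc2hc1a and Trp63 are highest at 15 or more.

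Since the members held fewer Myh4 nuclei, genes were also compared among nuclei of the same main myosin. Zc2hc1a was higher in all 5 classes, with log2 ratios from 3.13 to 4.37, as were Ablim1 (2.16 to 4.41), Atp2a2 (2.15 to 4.21) and Trp63 (0.97 to 3.01). Malat1 was higher in each class by 0.19 to 0.48. The summed slow list was 5.59-fold higher over all members, and by class its log2 ratio was 3.71 among Myh4, 2.27 among Myh1, 2.01 among under 3, 1.01 among mixed and 0.80 among Myh2 nuclei. The summed fast list was at 4593 against 9875 CPM over all members, with log2 ratios of -0.44 among Myh2, -0.47 among mixed, -0.57 among Myh1, -0.95 among Myh4 and -1.46 among under 3. Mdm2 had ratios of 2.82 among Myh1 nuclei and 2.53 among Myh2 nuclei, and 0.85 (-0.25 to 1.78) among Myh4 nuclei. Atf3 also varied by class, with 307 against 26.0 CPM among Myh4 nuclei (3.56, 2.97 to 4.13), log2 ratios of 0.96 (0.15 to 1.72) among Myh1 and 1.05 (-0.065 to 2.16) among mixed nuclei, 77.8 against 102 among Myh2 nuclei (-0.38, -1.55 to 0.64) and 59.2 against 107 among nuclei with under 3 fast myosin UMIs (-0.85, -1.92 to 0.07). Plpp7 was too sparse to follow by class: it had 0 UMIs in the members of the Myh1 and Myh2 classes, against 34.7 and 30.5 CPM in Nckap5-low nuclei, with upper bounds of the log2 ratio at -0.089 and 0.14. The log2 ratio was -1.11 (-3.00 to 0.28) in the Myh4 class, -1.66 (-4.84 to 0.46) in the mixed class and -3.12 (-8.47 to -0.53) among nuclei with under 3 fast myosin UMIs, from 4, 2 and 1 UMIs.

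**Figure D5:**
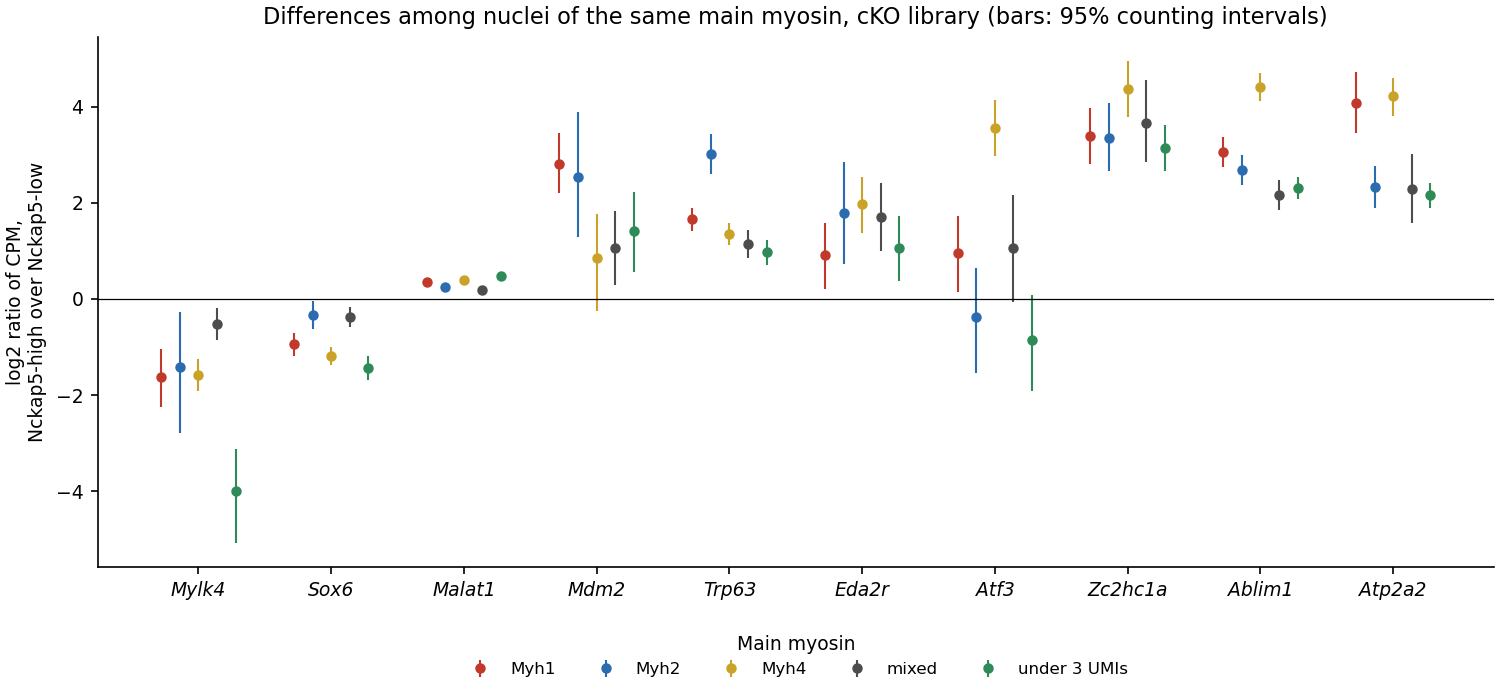
log2 ratio of CPM, members over Nckap5-low nuclei of the same main myosin, for 10 genes in 5 classes, with 95% counting intervals. Zc2hc1a, Ablim1, Atp2a2, Trp63, Eda2r and Malat1 lie above 0 in all classes, and Atf3 lies at 3.56 among Myh4 nuclei and below 0 in 2 other classes.

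The 82 members with 0 UMIs of all 7 slow genes and the 124 with at least 1 UMI of the other 6 were described apart. Zc2hc1a was at 611 and 560 CPM in them, Ablim1 at 1690 and 1947, Mylk4 at 307 and 302 and Trp63 at 1446 and 1321. Mdm2 was at 252 CPM in the former and 144 in the latter, Atf3 at 82.7 and 163, Myh2 at 1040 and 626 and Myh1 at 1001 and 622. Atp2a2 was at 615 CPM in the former and 1048 in the latter. Their median depths were 2210.5 and 3197.5 UMIs, so the split moves with depth.

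Against Nckap5-low nuclei of the Ctrl library, 402 of 6230 genes (6.45%) were past 2-fold higher in the members and 905 (14.5%) past 2-fold lower, with a median log2 ratio of -0.26. This comparison sets 1 library against another, and genotype, animals and library cannot be told apart. Zc2hc1a was at 578 against 21.4 CPM, Ablim1 at 1856 against 64.6, Trp63 at 1365 against 442, Mylk4 at 304 against 2501 and Myh4 at 647 against 2122. Fkbp5, a glucocorticoid-responsive gene, was at 18.0 CPM in the members and 521 in the Ctrl nuclei, and it was also at 29.8 in cKO Nckap5-low nuclei. Pde10a, a cyclic nucleotide phosphodiesterase gene, was at 217 CPM in the members, 99.6 in cKO Nckap5-low and 554 in Ctrl nuclei.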

How the data were processed

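Nuclei were isolated from frozen muscle and captured on the 10x Chromium platform, which counts 3′ ends. The labels and the study's methods name different versions of the kit. The deposited values are raw counts of UMIs per gene and barcode, which the authors made with Cell Ranger 3.1.0 at default parameters on mm10, and barcodes of both libraries were already selected as nuclei. The study's methods describe removal of doublets with Scrublet after this step, and whether the deposited matrices still hold them was not tested.

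Barcodes with at least 500 UMIs, at most 10% mitochondrial UMIs and under 3 stromal UMIs were kept. UMIs were summed over the nuclei of a set and divided by its total. No test was run, since each group had 1 library, and the spread between animals is unknown. GENCODE M21 (GRCm38) held 27645 of the gene IDs and lacked 353. Gm37161, Gm37936 and Gm38177 overlap Nckap5 on its strand, so reads they share could be lost from it. The members and gene lists were chosen with earlier results of these data known.

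Genes named are the 15 of highest and the 15 of lowest ratio to cKO Nckap5-low nuclei past the filter, those at 0 apart, the genes the rule names and members of the lists; any other is said to be chosen after its values were seen. Genes named in the comparison with Nckap5-high nuclei with Myh7 outside those were chosen after their values were seen. Intervals (95%) cover counting error only, and a count of 0 was read as allowing 3. Ratios past 2-fold were counted with no test. Thinning drew 500 or 1000 UMIs per nucleus without replacement. Scrublet (in scanpy 1.11.5) called 0 doublets in each library, too few for its calls to be used, and the top 8% of scores were removed in an alternative. Other alternatives changed the Nckap5 cut, the comparators, the totals, the filters and the depth minimum. Some were added after seeing the data. Scripts ran in Python 3.11.15 with scipy 1.17.1 for intervals, pandas 2.3.3 for tables, numpy 2.4.6 and, for plots, matplotlib 3.10.9, and the ratio code was tested on simulated data.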

Additional observations from a re-analysis of the deposited data

How the results depend on the processing

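No paired analysis was possible because each group was 1 library. Levels of members could not be compared between libraries, since Ctrl held 0 members. At 3 or more Nckap5 UMIs, 12 Ctrl and 353 cKO nuclei with 0 Myh7 were left, with Mylk4 at 2025 and 358 CPM. Low genes rest on few UMIs in 206 nuclei, and a count of lower genes includes many seen in few nuclei.

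The share of members was 5.40 percentage points higher in cKO. It was 8.91 at 3 or more Nckap5 UMIs, 1.62 at 10 or more, 6.20 in nuclei with at least 1000 UMIs and 2.15 with 0 UMIs of 7 slow genes. The log2 ratio of Plpp7 was -3.93 at 10 or more and -0.70 against Nckap5-high nuclei with Myh7. That of Mylk4 was -2.48 as the mean of single nuclei, -2.69 without the top 8% of doublet scores, -1.87 at 3 or more, -2.56 at 10 or more, -2.84 at 3 or more with 0.2% of UMIs, -3.04 against Ctrl and -0.32 against nuclei with Myh7. That of Malat1 was 0.32 against depth-matched nuclei, 0.58 with totals without Malat1 and mitochondrial genes, 0.41 as the mean, 0.43 without high doublet scores, 0.36 at 3 or more, 0.41 at 10 or more, 0.38 at 1000 UMIs, 0.30 with 0 slow UMIs, 0.37 with 0 stromal UMIs, 0.52 against Ctrl, 0.17 against nuclei with Myh7 and 0.38 without the nucleus of most Malat1 UMIs.

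Myh1 was at -0.35 against depth-matched nuclei and -0.64 at 3 or more with 0.2%, and its direction turned to 0.060 with totals without Malat1, 0.28 with 0 slow UMIs, 0.55 against Ctrl and 1.52 against nuclei with Myh7. Myh2 was at 1.07 in the former pair of settings each, 1.04 with totals without Malat1, 1.42 with 0 slow UMIs, 1.58 against Ctrl and 2.29 against nuclei with Myh7. Myh4 was at -1.82 with totals without Malat1, -2.45 as the mean, -2.70 without high doublet scores, -1.86 at 3 or more, -2.33 at 10 or more, -2.78 at 3 or more with 0.2%, -2.18 with 0 slow UMIs, -1.71 against Ctrl and -0.24 against nuclei with Myh7. Atf3 was at 0.86 against depth-matched nuclei, 0.89 at 3 or more with 0.2%, 3.01 against Ctrl and 0.14 against nuclei with Myh7.

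The counts past 2-fold were 260 higher and 638 lower, and 370 and 426 with totals without Malat1 and mitochondrial genes, where the median log2 ratio was -0.038. Fewer genes were tested and fewer were past 2-fold against depth-matched nuclei (150 and 226), with a filter of 100 UMIs (168 higher), with genes that passed through the members alone left out (166 higher), a setting added after seeing the data, and with 0 slow UMIs (333 lower). Of 264 other genes, 82 had a log2 ratio whose 95% interval included 0, and 56 of these changed sign under at least 1 alternative. Of the 182 whose interval excluded 0, 8 changed sign: Gpr179 at 0.046 and Sat1 at -0.37 at 3 or more with 0.2%, Neb at 0.063, Stim1 at 0.041 and Neat1 at 0.13 with totals without Malat1, Neat1 at 0.062 against depth-matched nuclei, Ddit3 at 0.038 and Lpl at -0.053 with 0 slow UMIs, and Nr4a2 at -0.34 and Lpl at -0.080 at 10 or more. The cause was not tested.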

Other observations

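Of 14 genes of the dystrophin complex, 0 were past 2-fold higher and 2 lower, with a median log2 ratio of -0.026, where 4.32% of all genes were higher and 10.6% lower: Lama2, the laminin chain of the muscle basement membrane, at 81.9 CPM against 317, and Sntb1 at 16.7 against 34.6. Dmd was at 13457 against 11782 CPM. Among 20 genes of calcium handling and excitation-contraction coupling, 1 was past 2-fold higher and 3 lower, again near the shares of all genes. The list left out Atp2a2 and Casq2, given with the slow genes above, whose log2 ratios were 3.22 and 1.30. Its counts and median depend on that choice. The list lay below the median of all genes, with a median log2 ratio of -0.50 against -0.23 and a summed 12600 CPM against 18593. The higher gene was Sln, sarcolipin, the inhibitor of the calcium pump, at 76.4 CPM against 17.6 in 36 members, and it had 2 UMIs in all Ctrl Nckap5-low nuclei. The lower genes were Atp2a1, Camk2a (80.5 against 248 CPM) and Jph2 (268 against 571). Of 12 atrophy genes 1 was past 2-fold higher and 1 lower, also near those shares. Trim63 was at 682 CPM against 658 and Fbxo32 at 369 against 543. Of 15 glucocorticoid and clock genes, 0 were higher and 3 lower past 2-fold, where 4.32% and 10.6% of all genes were. Their median log2 ratio was -0.36. Among 14 genes of the sarcomere scaffold 2 were higher (Myom3 and Synpo2l) and 2 lower (Mybpc2 and Myom2), beside the same shares of all genes. The median of this list was 0.25.

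Myh3, the embryonic myosin, was chosen after its values were seen and was below the filter on low counts. It was at 47.2 CPM in the members (34 UMIs), 0.613 in Nckap5-low (3 UMIs) and 0.900 in Ctrl Nckap5-low nuclei (8 UMIs), with 0 UMIs in depth-matched nuclei. The 34 lay in 5 members, 14 each in 2 nuclei and 3, 2 and 1 in the others. Myog, a regulator of muscle differentiation, was also below this filter. It was at 8.33 CPM in the members (6 UMIs) against 1.02 in Nckap5-low nuclei (5 UMIs, log2 3.03, 1.05 to 5.08).

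Against Nckap5-high nuclei with Myh7, and with Myh7 itself left out, the members were lowest for Mhrt and Myh6 among genes past the filter. Mhrt, a transcript antisense to the Myh7 locus, had 1 UMI against 169 CPM, and Myh6 had 3 UMIs against 103 CPM. Both lie at or near the Myh7 locus, which the rule used. Dkk2, an inhibitor of Wnt signalling, was at 43.0 against 277 CPM and Prox1, a regulator of slow fibres, at 16.7 against 84.6.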
